A study of Homo sapiens with 4 samples.

Results

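The cytosolic ribosomal protein genes encode the proteins of the large and small subunits of the ribosome outside mitochondria. They were taken by name and biotype, without use of any measured value, as the protein-coding rows off chromosome Y named RPL or RPS with a number and an optional suffix, plus RPLP0, RPLP1, RPLP2 and RPSA, and without the RPS6K kinases. This gave 81 rows of the 33478 in the table, of which 51 are large subunit rows and 30 are small subunit rows, spread over 21 chromosomes. RPL41 has a pair of rows, so the 81 rows carry 80 symbols. RPL3, RPL28 and RPS9 were among the genes not analysed here.

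RNA was sequenced from MHCC-97H, a human hepatocellular carcinoma line, carrying either a control short hairpin RNA (shRNA, labelled SH-NC) or an shRNA against UCK2 (labelled SH-UCK2, and UCK2 shRNA in the figures), with 2 libraries per hairpin. The product of UCK2, uridine-cytidine kinase 2, phosphorylates uridine and cytidine in pyrimidine salvage, and the comparison asks which transcripts differ when it is targeted. Values are TPM, a measure of transcript abundance given as a share of a library's transcripts corrected for gene length. Both SH-UCK2 titles carry the letter B, which may stand for the hairpin used; with only that hairpin, off-target effects and effects of lowering UCK2 cannot be told apart. Separate cultures are not mentioned in the labels, so a p-value here speaks for the spread among these 4 libraries alone.

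Some facts of the whole series bear on every value below. UCK2 itself was not separated by the labels, with control values of 135.7 and 93.6 TPM against 120.5 and 67.8 TPM (log2 difference -0.31 ± 0.30 SE, limma adjusted p = 0.640). The second group is therefore called the libraries labelled SH-UCK2. The rows held summed to 850379 and 850534 TPM for the controls but to 676811 and 643063 TPM for the libraries labelled SH-UCK2. Between 14.95% and 35.69% of the TPM total thus lay outside the rows analysed here, more in the libraries labelled SH-UCK2, and a difference as deposited is relative to that outside part as well. The description of control replicate 2 names MHCC-98H where its title has MHCC-97H and UCK3 stands in the description of SH-UCK2 replicate 2. The extraction text speaks of retinas, yet the 10 retina markers summed to between 3.6 and 4.64 TPM, with CRX at 0 or near it. The 10 hepatocyte markers summed to between 114 and 175 TPM, and 2 of them, APOB and GPC3, stayed below a mean of 1 TPM. The 6 leukocyte markers summed to between 45.3 and 55.6 TPM, nearly all of it CD68, with CD3E listed at 0 in all 4 libraries. The 6 fibroblast markers summed to between 7.16 and 29.2 TPM, mostly LUM, and the 5 endothelial markers to between 21.3 and 25.9 TPM, mostly PECAM1, with CDH5 at 0 or near it.

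As background, each ribosome holds a single copy of most ribosomal proteins, and the genes are transcribed strongly and together in growing cells. Their mRNAs typically begin with a C followed by an unbroken run of C and T (C and U in the RNA), the terminal oligopyrimidine or TOP motif, through which LARP1 and the mTOR pathway control their translation. A few members have a paralog that is expressed in certain tissues or states, and many have large numbers of processed pseudogenes.

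Annotated start sites show how often a start like the motif is listed among the members, and for which paralogs none is listed. A start annotated a few bases away can miss the motif, so its absence from a gene is not shown. RefSeq start sites (GRCh38.p14) were matched by symbol for 64 of the 80 symbols, with 80 starts. A start was counted as TOP-like where its annotated first base was C and at least 5 bases in a row from it were C or T. Such starts made up 45 of the 80 member starts (56.2%), against 1429 of all 35116 starts (4.07%). By gene, 44 of the 59 matched members outside the paralogs had at least 1 TOP-like start (74.6%), while of the 5 matched paralogs only RPL22L1 had it. Each line below gives 30 bases, 15 before the annotated start and 15 from it, in the direction of transcription. Capitals mark the unbroken C and T run that holds the start base; a line without capitals has no such run at that base. The first lines set parents beside paralogs, with RPL7L1 on its own.
RPL22, chr1:6199581-6199610, minus strand: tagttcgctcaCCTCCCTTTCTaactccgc
RPL22L1, chr3:170870181-170870210, minus strand: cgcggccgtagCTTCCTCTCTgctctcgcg
RPL26, chr17:8383179-8383208, minus strand: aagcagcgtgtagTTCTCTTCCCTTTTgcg
RPL26L1, chr5:172958714-172958743, plus strand: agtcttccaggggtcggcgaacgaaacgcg
RPS27, chr1:153990747-153990776, plus strand: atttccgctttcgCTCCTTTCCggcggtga
RPS27L, chr15:63157463-63157492, minus strand: aagttgatgccgagcgcagatcgcttgcag
RPL10, chrX:154398362-154398391, plus strand: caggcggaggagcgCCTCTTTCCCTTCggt
RPL10L, chr14:46651767-46651796, minus strand: caggcgtagttaagagagcgcattttgact
RPL7L1, chr6:42879601-42879630, plus strand: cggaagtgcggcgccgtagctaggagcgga
The next lines are members whose values are described below, among them the lowest and highest differences between groups.
RPL39, chrX:119791616-119791645, minus strand: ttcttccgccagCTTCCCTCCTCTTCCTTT
RPLP0, chr12:120201097-120201126, minus strand: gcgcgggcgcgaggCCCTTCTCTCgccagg
RPLP1, chr15:69452803-69452832, plus strand: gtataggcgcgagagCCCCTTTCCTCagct
RPLP2, chr11:809952-809981, plus strand: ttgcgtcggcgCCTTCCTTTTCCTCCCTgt
RPL35, chr9:124861943-124861972, minus strand: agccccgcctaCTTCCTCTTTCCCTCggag
RPS19, chr19:41860240-41860269, plus strand: ggaaaccccgtcgTTCCCTTTCCCCTggct
RPS24, chr10:78033848-78033877, plus strand: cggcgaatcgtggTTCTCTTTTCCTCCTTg
RPS26, chr12:56041903-56041932, plus strand: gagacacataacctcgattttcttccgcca

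RPL22L1 shares the C and T run of its parent RPL22, while RPL26L1, RPS27L, RPL10L and RPL7L1 have a purine as the annotated first base. RPL10 has 3 listed starts, of which the printed start alone was TOP-like, and neither of the listed starts of RPL26L1 was. The rule is strict about the annotated base: RPS26 failed it, although T-rich bases follow 2 positions after its annotated start. Within 250 bases before and 50 from each start, on either strand, CGGAAG, the core letters of ETS and GABP sites, stood in 56.2% of the member starts against 19.5% of all starts. ATGGCG, which holds the core letters of YY1 sites, stood in 36.2% against 10.7%. TATAAA, the box that TBP binds, stood in 7.5% against 11.5%. These windows may hold several of the motifs, and a match shows the letters only.

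**Figure D1:**
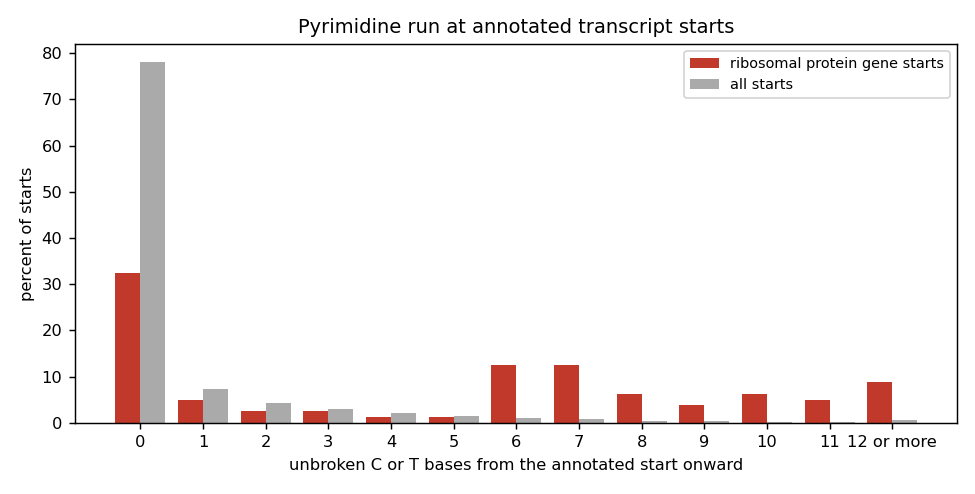
Length in bases of the unbroken C and T run counted from the annotated first base (x axis, the last class holding 12 or more) against the percentage of starts (y axis), for the 80 member starts and all 35116 RefSeq starts. Of all starts 78.1% have a run of 0 bases, against 32.5% of the member starts.

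The ribosomal protein genes held between 19.46% and 21.1% of the TPM of the rows analysed here, and their share of those rows did not separate the groups. Their TPM summed to 165524 and 179443 in control replicates 1 and 2, and to 134217 and 133508 in the libraries labelled SH-UCK2. As a share of the rows held, the sums were 19.46%, 21.1%, 19.83% and 20.76% in the same order. The share averaged 20.3% ± 1.16 in the controls against 20.3% ± 0.658 in the libraries labelled SH-UCK2 (SD, n = 2 each), and the groups interleaved. As a share of the full TPM total the order was different, at 16.55% and 17.94% against 13.42% and 13.35%, with both controls above. TPM are shares, so fewer ribosomal protein transcripts per cell and more RNA of other kinds cannot be told apart.

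Of the 81 rows, 78 averaged at least 1 TPM and entered the comparison, 48 of the large and 30 of the small subunit. RPL3L, a muscle paralog of RPL3, was listed at 0.14 and 0.24 TPM in the controls against 0.40 and 0.26 TPM. RPL10L, a testis paralog, was listed at 0.21 and 0 against 0 and 0.63 TPM. A row named RPL41 on chromosome 7 was listed at 0 and 1.40 against 0.79 and 1.26 TPM. Among all rows ordered by mean TPM, ribosomal protein genes filled 5 of the first 10 places, 29 of the first 50 and 49 of the first 100.

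The 78 members compared averaged between 47.4 and 18600 TPM, with a median of 1390, and 53 reached at least 1000. RPS27, a zinc-binding protein of the small subunit, led the family at 20712 and 21882 TPM in the controls against 15178 and 16728 TPM in the libraries labelled SH-UCK2. RPL39, a small protein that lines the exit tunnel, came next at 9307 and 9921 against 7588 and 8329 TPM. RPL41, whose product is a very short peptide, measured 8088 and 8386 against 7054 and 6516 TPM. The controls were above the other group for each of these 3 genes.

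RPS21, RPL35 and RPL30 completed the 6 most abundant members. RPS21, of the small subunit, measured 7254 and 8067 TPM in the controls against 5390 and 5440. RPL35, which sits beside the exit of the tunnel, measured 4602 and 5488 against 3212 and 3030 TPM, and RPL30, a protein of the large subunit, 3910 and 4089 against 3346 and 3669 TPM. RPL30 and RPL35 changed places in the libraries labelled SH-UCK2, so their order was not fixed. At the other end, 4 kept members averaged below 100 TPM, and all 4 were paralogs: RPL22L1, RPL39L, RPL7L1 and RPL26L1. The lowest kept member outside the paralogs was RPL21, at 290.2 and 339.5 against 256.8 and 243.9 TPM, a gene with 66 named pseudogenes.

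**Figure D2:**
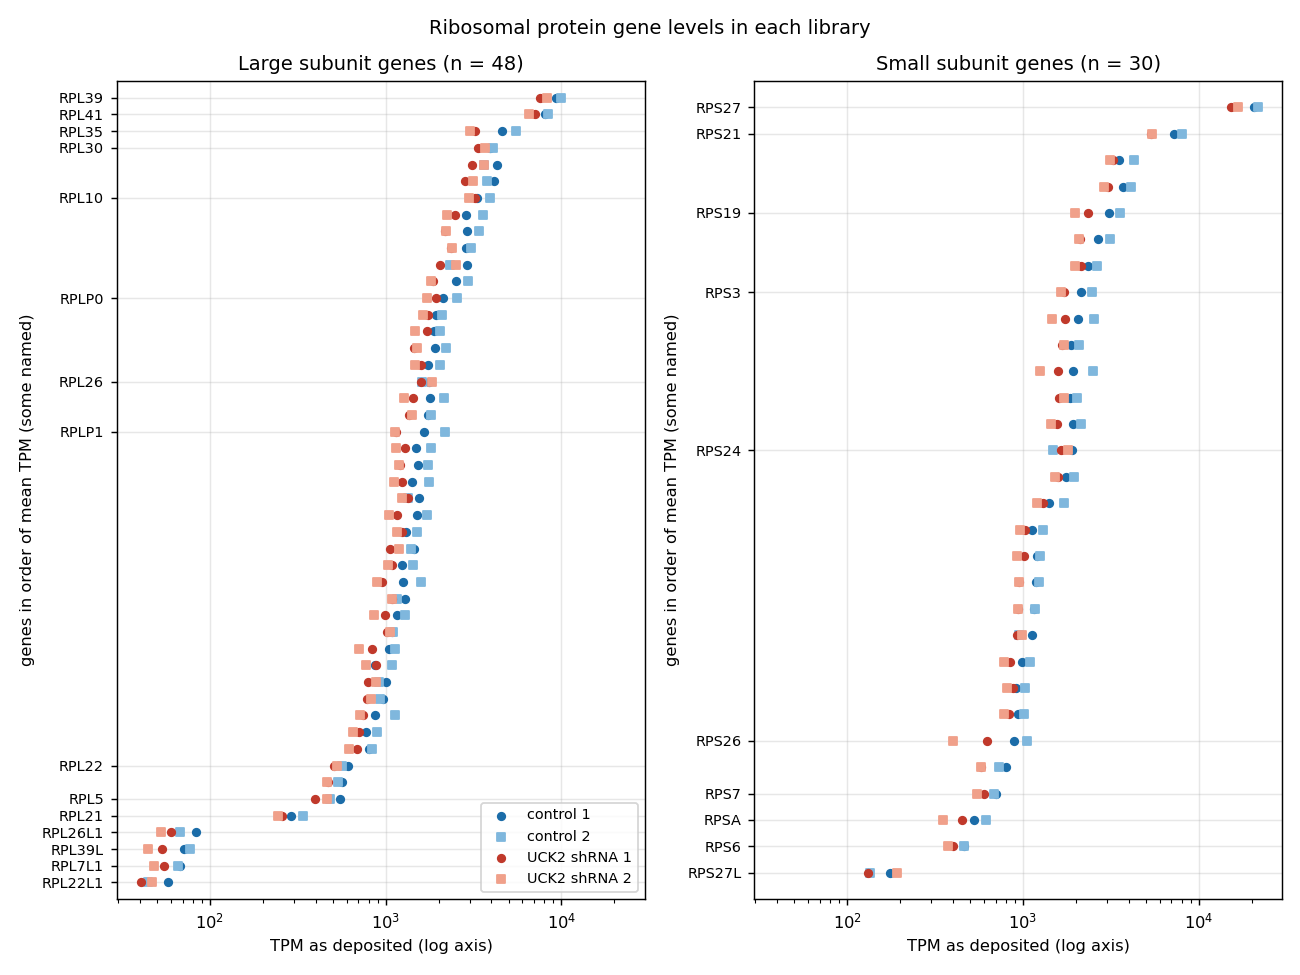
TPM on a log axis (x) of the 78 ribosomal protein genes compared, ordered by mean (y, with some genes named), with a point for each of the 4 libraries coloured by group. Levels run from a mean of 47.4 to 18600 TPM, and the paralogs sit at the low end.

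Shorter members tended to have higher levels. Across the 73 members without the paralogs, coding length and log2 mean TPM had a Spearman rho of -0.293 (Pearson r = -0.339). The shortest tertile, with coding lengths from 75 to 426 bases, had a median of 1640 TPM, and the longest, from 588 to 1280 bases, a median of 1390 TPM. Members with more named pseudogenes tended to lower levels (rho -0.187, r = -0.262, n = 73). The tertile with 16 to 91 named pseudogenes had a median of 1140 TPM and that with 1 to 5 a median of 1590 TPM. Over the 59 matched members the length of the C and T run and the level had a rho of 0.348 (r = 0.306). The 44 members with a TOP-like start had a median of 1430 TPM against 1100 TPM in the 15 without. These points are genes of the same 4 libraries and not independent samples. Reads of parents and pseudogenes can be shared, so the levels of members such as RPL23A (91 named pseudogenes), RPSA (74) and RPL21 are uncertain. In addition, 38 of the 81 members were overlapped by another row, the most abundant of these being C19orf70 over RPL36 at up to 128 TPM.

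In the values as deposited, the ribosomal protein genes lay lower in the libraries labelled SH-UCK2, as most abundant genes did, and no single member passed the test. The median log2 difference of the 78 members (SH-UCK2 minus control, on log2(TPM + 1)) was -0.324, with quartiles of -0.443 and -0.235 and a range from -0.948 to 0.0451. All 14038 genes tested had a median of -0.218. The 1076 other genes averaging at least 100 TPM, a comparison chosen after the values were seen, had a median of -0.419. The members thus lay between all genes and other genes of high level.

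By limma with Benjamini-Hochberg adjustment over all genes tested, 0 of the 78 members were called higher and 0 lower, as were 0.0% of all genes in each direction, and the smallest adjusted p of a member was 0.294. Without adjustment, 31 of the 78 were lower at p under 0.05 (39.7%), against 14.0% of all genes and 57.0% of the other genes of at least 100 TPM. None of the members was higher by that measure, against 1.38% of all genes. The groups did not overlap, with the controls above, for 69 members (88.5%), against 44.4% of all genes and 85.9% of the other genes of high level. The opposite order held for 0 members and 5.46% of all genes. The 9 members whose groups overlapped were RPL6, RPL7, RPL15, RPL22L1, RPL26, RPL36A, RPS24, RPS27A and RPS27L. The difference was below 0 for 75 members (96.2%), against 74.7% of all genes and 98.0% of the other genes of high level.

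Most of that shift depended on the scale. Median-ratio scaling brought the median of all genes tested from -0.218 to -0.00622 and that of the members from -0.324 to -0.084, while the other genes of at least 100 TPM had -0.18. Then 57 of 78 members were below 0 (73.1%), against 50.8% of all genes and 83.6% of the other genes of high level. By limma 0 members were called in either direction, against 0.0641% of all genes called higher and 0.0% lower. Only RPS26 was lower without adjustment, 1 of 78 against 1.42% of all genes, and 0 were higher, against 3.97%. The scaled groups did not overlap for 13 members that were lower, against 15.5% of all genes, and for 6 that were higher, against 16.0%. These 6 were RPL6, RPL11, RPL23, RPL26, RPS24 and RPS27A. The 13 lower ones included RPL13A, RPL26L1, RPL27, RPL31, RPL35, RPL39L, RPLP1, RPLP2, RPS19, RPS21, RPS25 and RPS26. The lower count, 16.7% of the members, was near the share of all genes, and the higher count, 7.69%, was below it.

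Scaling each library to the sum of its rows, an alternative chosen after the data were seen, turned the direction of the median. The median of the members was then 0.0412 beside 0.103 for all genes tested, with 31 of 78 below 0 (39.7%) against 33.6% of all genes. The sign of the family's median therefore depended on the scale. The members' median lay below that of all genes as deposited, after median-ratio scaling and on this scale. After quantile normalization it lay above, at 0.037 beside -0.0291 for all genes. The family's share of the rows held was the same in the means of both groups.

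**Figure D3:**
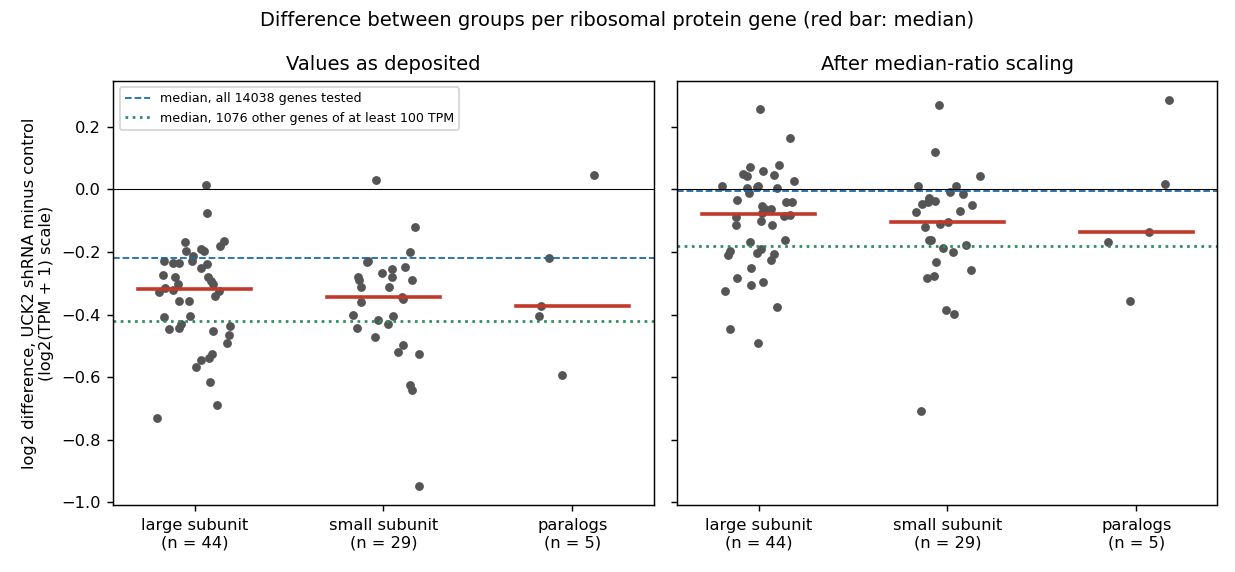
Log2 difference (SH-UCK2 minus control, on log2(TPM + 1)) of each large subunit member, small subunit member and paralog (points; red bars are medians), as deposited and after median-ratio scaling, with dashed and dotted lines at the medians of comparison genes. As deposited the members have a median of -0.324 beside -0.218 for all genes tested and -0.419 for other genes averaging at least 100 TPM; after scaling the 3 medians are -0.084, -0.00622 and -0.18.

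After scaling, the controls differed from each other by more than the groups did. As deposited, control replicate 2 had the highest value for 57 of the 78 members and SH-UCK2 replicate 2 the lowest for 51. After scaling, control replicate 2 was highest for 64 members, and control replicate 1, of the same group, was lowest for 38. The median scaled deviation of the members from their own means was -0.104 in control replicate 1, 0.219 in control replicate 2, -0.00974 in SH-UCK2 replicate 1 and -0.0877 in SH-UCK2 replicate 2. The controls thus lay on both sides of the other group. Without control replicate 2 the deposited median of the members was -0.289 beside -0.339 for all genes, and without control replicate 1 it was -0.376 beside -0.102. The members were above the median of all genes in the first case and below it in the other.

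The large and small subunits had close medians. Without the paralogs, the 44 large subunit members had a median log2 difference of -0.319, with 43 below 0, and the 29 small subunit members a median of -0.345, with 28 below 0. The difference between these medians was 0.0256, and it became -0.00735 without SH-UCK2 replicate 2, 0.00831 without SH-UCK2 replicate 1 and 0.00426 with the paralogs included. After median-ratio scaling the medians were -0.0783 and -0.104. Levels of the 44 large subunit members had a median of 1542 and 1750 TPM in the controls against 1266 and 1192 TPM in the libraries labelled SH-UCK2. The 29 small subunit members had medians of 1770 and 1718 against 1562 and 1257 TPM. Summed TPM of the large over the small subunit was 1.286 and 1.259 in the controls against 1.311 and 1.32 in the libraries labelled SH-UCK2. Those ratios did not overlap, but the gap between the groups' means (1.27 ± 0.0191 and 1.32 ± 0.00636, SD, n = 2 each) is small, and an exact permutation test of 2 against 2 libraries cannot give a p below 0.33.

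RPS26 had the lowest log2 difference of the members over all 4 libraries. Without SH-UCK2 replicate 2 it was not the lowest, which was then -0.718, in a large subunit member. RPS26, a small subunit protein beside the channel where mRNA leaves, is encoded on the plus strand of chromosome 12 (hg38, 56041853 to 56044675, ENSG00000197728). It measured 884.8 and 1060.6 TPM in the controls against 626.4 and 401.6 TPM in the libraries labelled SH-UCK2. The groups did not overlap, and both libraries labelled SH-UCK2 lay below the controls after scaling as well. The log2 difference of RPS26 was -0.95 ± 0.23 (SE; 95% interval -1.49 to -0.40; limma adjusted p = 0.294), and -0.71 after median-ratio scaling (limma adjusted p = 0.894). SH-UCK2 replicate 2 was the lowest library by far: without it the difference of RPS26 was -0.628 (limma adjusted p = 0.936), and without SH-UCK2 replicate 1 it was -1.27 (limma adjusted p = 0.439). Without control replicate 1 the adjusted p of RPS26 was 0.0449, with a difference of -1.08, the one case of leaving out a library in which a member passed.

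The P-stalk, through which the large subunit recruits elongation factors, is built from RPLP0 and pairs of RPLP1 and RPLP2. RPLP1 measured 1657.7 and 2165.4 TPM in the controls against 1151.4 and 1131.7 TPM, a log2 difference of -0.73 ± 0.18 (SE). RPLP2 measured 1512 and 1712 against 1161 and 1046 TPM, a difference of -0.55. For both the groups stayed apart after scaling, at -0.49 for RPLP1 and -0.30 for RPLP2. For RPLP2 they barely did, with scaled values of 1275 TPM in control replicate 1 and 1264 TPM in SH-UCK2 replicate 1. RPLP0, the base of the stalk, measured 2123 and 2542 against 1928 and 1708 TPM, a difference of -0.36, and after scaling its groups overlapped at -0.12. None of the stalk genes passed the test (limma adjusted p = 0.294 for RPLP1 and RPLP2 and 0.359 for RPLP0).

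The other members with the lowest differences came from both subunits. RPL35 had a log2 difference of -0.69 ± 0.17 (SE), with means of 5045 ± 626 TPM in the controls against 3121 ± 129 TPM in the other group (SD, n = 2 each). RPS2, a protein near the decoding centre and the channel where mRNA enters, measured 1930 and 2507 against 1584 and 1257 TPM, a difference of -0.64. RPS19, of the head of the small subunit, measured 3104 and 3563 against 2360 and 1969 TPM, a difference of -0.63. In each the controls lay above. RPL13A, known also for its part in translational silencing after interferon, measured 2511 and 2938 against 1853 and 1814 TPM (-0.57). For RPL35, RPS19 and RPL13A the groups stayed apart after median-ratio scaling and for RPS2 they did not. The gap was narrow for RPS19, with scaled values of 2617 TPM in control replicate 1 and 2571 TPM in SH-UCK2 replicate 1. The limma adjusted p was 0.294 for each of these 4 genes.

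At the other end, the differences of some members were small as deposited. RPS24, a small subunit protein, measured 1911 and 1482 TPM in the controls against 1642 and 1798 TPM in the libraries labelled SH-UCK2. RPL26, a large subunit protein known to be modified by UFM1, measured 1766 and 1613 against 1586 and 1834 TPM. Their log2 differences were 0.03 ± 0.18 and 0.02 ± 0.16 (SE). In RPS24 both libraries labelled SH-UCK2 lay between the controls, and in RPL26 they lay on both sides of the controls. RPL6 measured 1557 and 1333 against 1339 and 1235 TPM (-0.16), and RPL22, which also binds RNA outside the ribosome, 611.1 and 567.5 against 507.8 and 530.3 TPM (-0.18). The groups overlapped for RPS24, RPL26 and RPL6, and for RPL22 the controls lay above. The limma adjusted p was 0.956 for RPS24, 0.976 for RPL26, 0.648 for RPL6 and 0.569 for RPL22.

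RPL5, RPL11 and RPL23 are the ribosomal proteins best known for binding MDM2, the ligase that degrades p53, when ribosome assembly is disturbed. RPL11 measured 1288 and 1163 TPM in the controls against 1085 and 1091 TPM. RPL23 measured 1093 and 1097 against 1015 and 1062 TPM. RPL5 measured 553.2 and 484.8 against 393.7 and 461 TPM. The log2 differences were -0.17 for RPL11, -0.08 for RPL23 and -0.28 for RPL5, with limma adjusted p of 0.605, 0.832 and 0.430, and after scaling 0.07, 0.16 and -0.04.

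Among members whose mutation causes Diamond-Blackfan anaemia, an inherited failure of red cell production, differences spread over the whole range of the family. RPS26 and RPS19 lay at its low end and RPS24 at its high end. RPL35A measured 1917 and 2191 TPM in the controls against 1449 and 1517 TPM (log2 difference -0.47). RPS10 measured 1409 and 1718 against 1296 and 1210 TPM (-0.31), and RPS7 706.3 and 680.6 against 599.1 and 544.7 TPM (-0.28). For RPL35A, RPS10 and RPS7 the controls were above as deposited, and for all 3 the groups overlapped after scaling.

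Members of other roles had log2 differences between -0.52 and -0.12, beside the family median of -0.324. RPS6, the classic substrate of S6 kinase, measured 460.9 and 459.4 against 399.1 and 375.4 TPM (-0.25). RPS27A, made as a fusion with ubiquitin, measured 1132 and 949 against 923 and 984.9 TPM (-0.12). The groups overlapped for RPS27A but not for RPS6. The tunnel proteins were RPL4, at 1885 and 2034 against 1713 and 1470 TPM (-0.30), and RPL17, at 999.8 and 915.4 against 790.7 and 879.5 TPM (-0.20). RPSA, also known as a laminin receptor, measured 526.3 and 620.5 against 449.6 and 350.5 TPM (-0.52). RPS3, which also takes part in DNA repair, measured 2134 and 2471 against 1724 and 1658 TPM (-0.44). In all 4 the controls lay above as deposited.

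RPL38, tied in mice to translation of Hox mRNAs, measured 1527 and 1740 TPM in the controls against 1204 and 1192 TPM (-0.44). RPL10, which joins the large subunit late in assembly, measured 3313 and 3922 against 3228 and 2995 TPM (-0.21). RPS4X, which escapes X inactivation, measured 1193 and 1233 against 954.3 and 948.1 TPM (-0.35). In RPS4X the libraries of each group were close together, and the limma adjusted p was 0.318. After median-ratio scaling the groups overlapped for RPL4, RPL10, RPL17, RPL38, RPS3, RPS4X and RPSA.

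Setting the median level of the ribosomal protein genes equal in all 4 libraries puts each member beside the middle of the family. It did not centre the members' differences on 0. Their median log2 difference was then 0.0616, beside 0.119 for all genes tested. Below 0 were 30 of the 78 members (38.5%), against 30.8% of all genes. On that scale RPS26 (log2 difference -0.56), RPLP1 (-0.34) and RPL35 (-0.30) were lower at an unadjusted limma p under 0.05, 3 of 78 against 0.791% of all genes. RPL26 (0.40) and RPL23 (0.31) were higher by that measure, 2 of 78 against 2.94%. Because the scale was set from the members' own values, members and all genes are not compared on equal terms here. No excess is read from these shares. After adjustment 0 members were called in either direction, and 0.0% of all genes were called higher and 0.0% lower. The smallest adjusted p of a member was 0.995.

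The same scale shows which libraries carried these differences. Relative to the family and to its own mean, RPS26 stood at 0.22 and 0.34 in the controls, at 0.00 in SH-UCK2 replicate 1 and at -0.56 in SH-UCK2 replicate 2. RPLP1 stood at 0.05 and 0.29 against -0.20 and -0.15, and RPL35 at 0.10 and 0.20 against -0.15 and -0.15. RPS24 stood at 0.05 and -0.47 against 0.11 and 0.31, and RPL26 at -0.06 and -0.34 against 0.06 and 0.34. For RPS24, RPL26 and RPL23 control replicate 2 was the lowest library and SH-UCK2 replicate 2 the highest. In RPS24 and RPL26 the controls differed from each other by more than control replicate 1 differed from SH-UCK2 replicate 1.

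**Figure D4:**
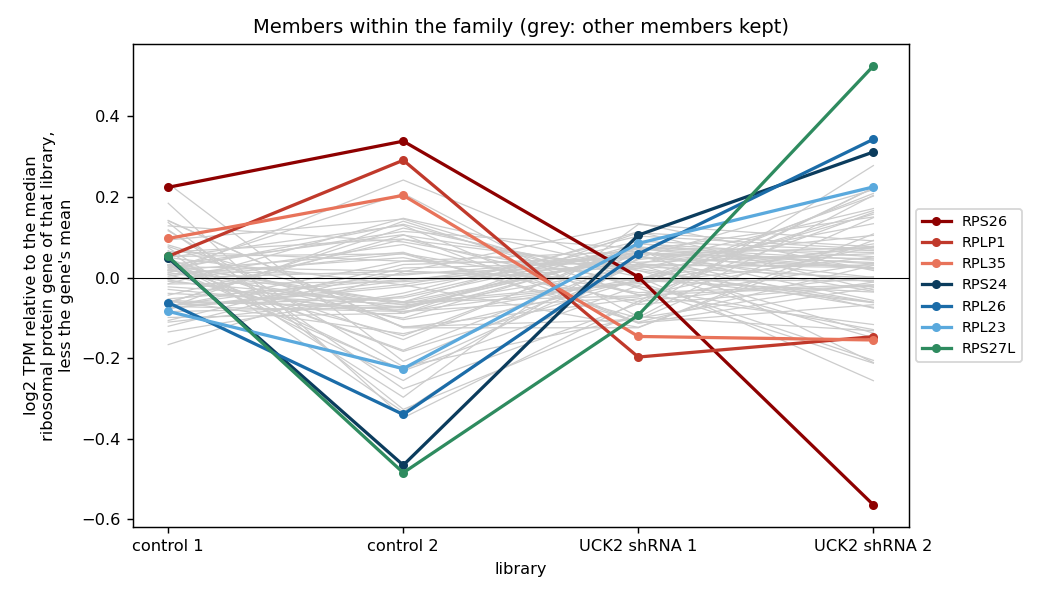
Log2 level relative to the median of the ribosomal protein genes and to each gene's own mean over the 4 libraries (y axis) in the 4 libraries (x axis), for the members with the lowest and highest differences, chosen for those differences. Lines join the values of a gene and imply no order of the libraries; RPS26 stands at -0.56 in SH-UCK2 replicate 2, and RPS24 lies at -0.47 in control replicate 2.

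The paralogs were minor forms in these cells, each at most 9.49% of its parent. RPL22L1, which can take the place of RPL22, reached 9.49% and 7.83% of RPL22 in the controls against 7.97% and 8.81% in the libraries labelled SH-UCK2. RPL7L1 reached 2.33% and 2.85% of RPL7 against 2.69% and 1.92%. For both pairs the groups overlapped, and the log2 ratios of paralog to parent differed by -0.04 ± 0.15 for RPL22L1 and -0.18 ± 0.28 for RPL7L1 (SE). In TPM, RPL22L1 measured 58.0 and 44.4 in the controls against 40.5 and 46.7, and RPL7L1 67.2 and 66.2 against 54.9 and 47.9. The parent RPL7 measured 2891 and 2321 against 2044 and 2499 TPM, with groups that overlapped. RPL10L was at most 0.0212% of RPL10.

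For 3 pairs the ratios did not overlap between groups. With so few libraries this is common: after median-ratio scaling, 15.5% of all genes did not overlap and were lower, and 16.0% were higher. No such share was computed for ratios of genes, so the count is not read as a result about these pairs. RPL26L1, a close copy of RPL26, reached 4.69% and 4.19% of its parent in the controls against 3.76% and 2.89%, a log2 ratio difference of -0.42 ± 0.20 (SE). RPL39L, known from testis and many tumours, reached 0.766% and 0.774% of RPL39 against 0.704% and 0.532%, a difference of -0.32 ± 0.20 (SE). RPS27L, a target of p53, stood on the other side, at 0.848% and 0.613% of RPS27 in the controls against 0.865% and 1.14%, a difference of 0.46 ± 0.31 (SE). When a library was left out, these differences ran from -0.61 to -0.232 for RPL26L1, from -0.52 to -0.121 for RPL39L and from 0.23 to 0.696 for RPS27L. The ends nearest 0 came without SH-UCK2 replicate 2 for RPL26L1 and RPL39L and without control replicate 2 for RPS27L. Dividing a library by a factor leaves ratios of paralog to parent unchanged, apart from the pseudocount. Quantile normalization does not: the differences became -0.479 for RPL26L1, -0.416 for RPL39L and 0.442 for RPS27L. In RPS27L control replicate 1 and SH-UCK2 replicate 1 were nearly equal, and an exact permutation test cannot go below p = 0.33 here. In TPM, RPS27L measured 175.7 and 134.1 in the controls against 131.2 and 191.2, with groups that overlapped, and RPL39L measured 71.27 and 76.75 against 53.45 and 44.32 (log2 difference -0.59, limma adjusted p = 0.294).

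**Figure D5:**
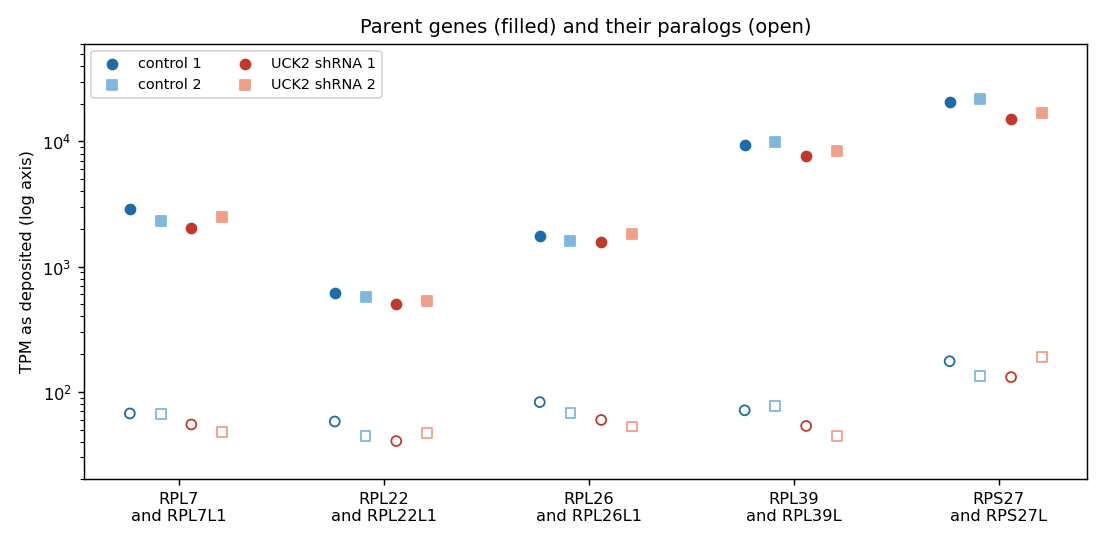
TPM on a log axis of 5 paralogs (open symbols) and their parent genes (filled symbols) in each of the 4 libraries, coloured by group. Every paralog lies below its parent; RPL22L1 lies between 7.83% and 9.49% of RPL22, and RPS27L between 0.613% and 1.14% of RPS27.

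Differences hardly followed the sequence features. Over the 73 members the log2 difference had a rho of 0.12 with coding length (r = 0.119) and 0.187 with the number of named pseudogenes (r = 0.0595). Over the 59 with a start its rho with the run length was -0.102 (r = 0.0117). The 44 members with a TOP-like start had a median log2 difference of -0.349 and the 15 without had -0.303. RPS26, with no TOP-like start listed, and RPLP1 and RPL35, with long runs, shared the low end of the differences, and RPS24 at the high end has a run as well.

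Genes around the ribosomal proteins gave 0 calls by limma in all 7 lists examined. The counts without adjustment below stand beside 14.0% of all genes lower, 1.38% higher and 74.7% below 0 as deposited, and beside 57.0% lower and 98.0% below 0 of the other genes of at least 100 TPM. Of the 4 further ribosomal proteins whose names fall outside the rule, 3 were lower without adjustment and 4 of 4 were below 0, with a median log2 difference of -0.455 (-0.215 scaled). After scaling 0 of the 4 were lower without adjustment. GNB2L1, the gene of RACK1, measured 1066.8 and 1180.9 TPM in the controls against 755.6 and 683.9 TPM. FAU, whose product holds a small subunit protein, measured 658.3 and 771.0 against 567.6 and 475.2 TPM. In both the controls lay above, while RPL36AL, at 245.0 and 175.6 against 202.5 and 207.6 TPM, overlapped.

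Of the 16 elongation factor and other TOP mRNA genes, 4 were lower without adjustment and 0 higher, with a median of -0.285 (-0.0444 scaled). After scaling 0 of the 16 were lower. EEF1A1, which brings aminoacyl-tRNA to the ribosome, measured 2799 and 2804 TPM in the controls against 2371 and 2202 TPM. HNRNPA1, a splicing factor, measured 987 and 872.1 against 717.9 and 798.7 TPM, and EEF1D, an exchange factor for EEF1A1, 839.8 and 1003 against 668.4 and 642.1 TPM. The scaled median of these genes was nearer 0 than that of the ribosomal proteins. This difference was not tested.

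Of the 12 chaperones and importins of ribosomal proteins, 2 were lower without adjustment and 12 of 12 were below 0, with a median of -0.228 (0.00143 scaled). After scaling 1 was lower and 6 of 12 were below 0. Of the 12 genes of TOP translation control, 3 were lower and the median was -0.28 (-0.0538 scaled), and LARP1 measured 105.5 and 97.2 TPM against 81.2 and 76.6 TPM. Of the 9 genes of the MDM2 and p53 axis, 2 were lower, with a median of -0.214 (-0.0502 scaled). BAX, a pro-apoptotic target of p53, was the most abundant of them at 378.7 and 389.1 against 226.8 and 203.7 TPM. Of the 7 promoter factors, 2 were lower, with a median of -0.308 (-0.0789 scaled), among them MYC at 119.2 and 121.5 against 90.0 and 86.9 TPM. Of the 10 ribosome quality control genes, 1 was lower, with a median of -0.0758 (0.155 scaled). No list had a gene that was higher without adjustment as deposited. After scaling 1 gene was higher without adjustment in each of 3 lists, those of TOP translation control, the MDM2 and p53 axis and ribosome quality control, beside 3.97% of all genes. The MDM2 and p53 axis, like the chaperones and importins, also had 1 gene lower after scaling, beside 1.42% of all genes.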

How the data were processed

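The deposited table gives TPM per gene for 4 libraries with hg38 positions, per the file headers; TopHat2 2.0.14, edgeR, DESeq and HTSeq stand in the submitters' processing notes without a role. TPM carry no depth, so counting error is unknown, and the strand setting of the counting is not given in the sources. Libraries were grouped by title. The 14038 genes averaging at least 1 TPM were compared as log2(TPM + 1) by limma (version 3.58.1; R 4.3.3; lmFit, eBayes with trend; two-sided; Benjamini-Hochberg over all genes, threshold 0.05), as deposited, after median-ratio scaling and with the ribosomal protein median set equal. A log2 difference on this scale understates the change of low genes. The fit was tested on simulated data. Coding lengths and named pseudogenes came from GENCODE, start sites from RefSeq. Named members are the 6 highest and 6 lowest in level, the 8 lowest and 8 highest differences, the paralogs and members listed by role; of other lists, at most 3 of the highest level, with RPL36AL, LARP1 and MYC added after their values were seen. LARP1 and MYC also stand among the 3 highest of their lists by mean TPM, while RPL36AL does not. Members and lists were chosen with earlier results of these data known. Some genes that this rule takes are not reported here. Alternatives were other pseudocounts, filters, scalings and variance models, a replicate block, and omission of each library. Figures were drawn with matplotlib 3.10.9.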

Additional observations from a re-analysis of the deposited data

How the results depend on the processing

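No member was called higher under any of the alternatives run, and none lower except the cases given here. Over all genes, 0 were called in either direction as deposited; 9 were called higher after median-ratio scaling and 8 after quantile normalization. Leaving out a library gave between 0 and 242 genes called higher and between 0 and 108 lower, with 0 to 1 members among them, RPS26 without control replicate 1; a group left with 1 library is assumed to vary like the other. The 31 members lower without adjustment became 13 with no filter on low values, 10 without the variance trend, 1 after median-ratio scaling, 1 without the 50 most abundant genes, 1 after scaling to the sum of the rows held, 3 after quantile normalization and 3 with equal ribosomal protein medians, and between 2 and 22 when a library was left out (5 without control replicate 2, 12 without SH-UCK2 replicate 1 and 2 without SH-UCK2 replicate 2). The share of all genes lower without adjustment fell as well, from 14.0% as deposited to 1.42% after median-ratio scaling. It was 0.947% after scaling to the sum of the rows held and 0.791% with equal ribosomal protein medians. For the other alternatives that share was not computed, so the changes in count are not read as particular to the members. Replicate numbers mark no stated culture or day. Deviations of same-numbered libraries from their group means had a correlation of -0.214 over all genes and -0.624 over members. With 2 libraries per group these values cannot show whether any libraries shared a culture or a day. With the replicate block 29 genes were called higher and 10 lower, with 0 members, and 7 members were lower without adjustment. The crossed pairing, chosen after seeing the data, called 91 of the 14038 genes higher and 636 lower. Of the 78 members it called 0 higher and 29 lower. Calls among the other genes of high level were not counted under it, so the members' count is not read as particular to them.

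The median log2 difference of the members, -0.324, became -0.084 after median-ratio scaling (-0.0778 relative to all genes), 0.037 after quantile normalization, 0.0267 without the 50 most abundant genes and 0.0412 after scaling to the sum of the rows held, and ran from -0.376 to -0.289 when a library was left out. The difference of the subunit medians, 0.0256, ran from -0.00735 to 0.0334 when a library was left out and was 0.00426 with the paralogs. The cause of these changes was not tested. Other pseudocounts (0.1 and 5), a filter at 5 TPM and robust variances left the members' counts of calls at 0.

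The named members compared number 41. Dividing a library by a factor shifts all its genes by nearly the same log2 amount, so turns of sign under such scalings are not particular to a gene. Of all genes, 74.7% were below 0 as deposited and 50.8% after median-ratio scaling. The share was 33.6% after scaling to the sum of the rows held and 30.8% with equal ribosomal protein medians. After median-ratio scaling, the log2 difference turned for 10 of the named members, to 0.0277 for RPL10, 0.071 for RPL11, 0.0428 for RPL17, 0.0584 for RPL22, 0.0173 for RPL22L1, 0.164 for RPL23, 0.0503 for RPL30, 0.0769 for RPL6, 0.0445 for RPL7 and 0.121 for RPS27A. After quantile normalization, the log2 difference turned, or in RPS21 only reached 0, for 18 of the named members, to 0.158 for RPL10, 0.221 for RPL11, 0.166 for RPL17, 0.108 for RPL21, 0.218 for RPL22, 0.0986 for RPL22L1, 0.295 for RPL23, 0.235 for RPL30, 0.177 for RPL39, 0.0482 for RPL4, 0.162 for RPL5, 0.212 for RPL6, 0.25 for RPL7, 0.0874 for RPS10, 0 for RPS21, 0.262 for RPS27A, 0.154 for RPS6 and 0.121 for RPS7. After rescaling without the 50 most abundant genes, the log2 difference turned for 19 of the named members, to 0.139 for RPL10, 0.182 for RPL11, 0.154 for RPL17, 0.0249 for RPL21, 0.169 for RPL22, 0.126 for RPL22L1, 0.275 for RPL23, 0.161 for RPL30, 0.0784 for RPL39, 0.0485 for RPL4, 0.0712 for RPL41, 0.07 for RPL5, 0.188 for RPL6, 0.155 for RPL7, 0.039 for RPS10, 0.231 for RPS27A, 0.0012 for RPS4X, 0.102 for RPS6 and 0.0722 for RPS7. With equal ribosomal protein medians, the log2 difference turned for 21 of the named members, to 0.174 for RPL10, 0.217 for RPL11, 0.189 for RPL17, 0.0599 for RPL21, 0.204 for RPL22, 0.16 for RPL22L1, 0.31 for RPL23, 0.196 for RPL30, 0.113 for RPL39, 0.0835 for RPL4, 0.106 for RPL41, 0.105 for RPL5, 0.223 for RPL6, 0.19 for RPL7, 0.00791 for RPL7L1, 0.0308 for RPLP0, 0.074 for RPS10, 0.266 for RPS27A, 0.0362 for RPS4X, 0.137 for RPS6 and 0.107 for RPS7. After scaling to the sum of the rows held, the log2 difference turned for 20 of the named members, to 0.153 for RPL10, 0.196 for RPL11, 0.168 for RPL17, 0.0394 for RPL21, 0.184 for RPL22, 0.14 for RPL22L1, 0.289 for RPL23, 0.176 for RPL30, 0.0929 for RPL39, 0.063 for RPL4, 0.0857 for RPL41, 0.0845 for RPL5, 0.202 for RPL6, 0.17 for RPL7, 0.0103 for RPLP0, 0.0535 for RPS10, 0.246 for RPS27A, 0.0157 for RPS4X, 0.116 for RPS6 and 0.0867 for RPS7. Without control replicate 2, the log2 difference turned for 3 of the named members, to -0.0503 for RPL26, -0.154 for RPS24 and -0.149 for RPS27L. Without SH-UCK2 replicate 2, the log2 difference turned for 3 of the named members, to -0.0895 for RPL26, -0.0354 for RPS24 and -0.225 for RPS27L. Without control replicate 1, the log2 difference turned for 1 of the named members, to 0.00675 for RPS27A. When a library was left out, the log2 difference of these 4 ran from -0.0895 to 0.12 for RPL26, -0.154 to 0.214 for RPS24, -0.225 to 0.315 for RPS27L, -0.247 to 0.00675 for RPS27A. Depth is unknown, so what counting error adds cannot be stated.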
